A study of Mus musculus with 6 samples.

Results

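The genes described here encode the ligands, receptors and extracellular modulators of Wnt signalling, together with Axin2, a gene that the pathway itself switches on. They were taken by symbol from the deposited gene tables, and 47 of 55487 gene rows matched. These were 19 Wnt ligands, 12 receptor genes (10 Frizzled genes with the co-receptors Lrp5 and Lrp6), 8 secreted antagonists of the Sfrp and Dkk families, 7 R-spondins and Lgr receptors, and Axin2. The libraries came from mammary tumours of MMTV-PyMT mice, whose polyoma middle T oncogene is under the mouse mammary tumour virus promoter, active mainly in mammary epithelium. The treated group, 3 libraries, received DMHCA, a steroidal agonist of the LXR nuclear receptors that sense oxysterols. The other 3 libraries were from vehicle (Ctl) animals. All 6 carried the transgene, and the labels describe the same oral dosing in gel cups, begun at 6 weeks of age and never interrupted, for both groups. Age at collection, sex and strain background are not in the labels. The sample titles give the agonist libraries 1 shared code and the vehicle libraries another, so whatever that code stands for cannot be told apart from treatment, although the deposited tables carry a separate code for each library. Nothing in the labels states whether each library is from its own mouse, and a p-value here therefore reflects only library-to-library spread, part of which may be technical.

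Wnt proteins are secreted, lipid-modified ligands that Porcn acylates and Wls carries to the cell surface. Binding of a Wnt to a Frizzled receptor and to Lrp5 or Lrp6 halts the breakdown of beta-catenin, which then acts with TCF/LEF factors on target genes, whereas Wnt5a, Wnt5b and Wnt11 are known mostly for signalling without beta-catenin. Secreted Sfrp proteins bind Wnts, Dkk1 and related proteins block Lrp5 and Lrp6, and R-spondins act through Lgr4, Lgr5 and Lgr6 to keep Frizzled receptors at the surface. In the mammary gland Wnt4 relays the progesterone signal, and Wnt1 was discovered as a gene that mouse mammary tumour virus switches on by inserting beside it.

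The stretches upstream of 3 members are shown, out of 5 whose levels ranked the libraries identically, as described further on. Each is the 250 bases before the RefSeq start in build GRCm38.p6, read along the gene. They come from Axin2 (chr11:108920099-108920348, plus strand), Sfrp2 (chr3:83766071-83766320, plus strand) and the upstream start of Wnt11 (chr7:98834862-98835111, plus strand). Capitals mark a match to the TCF/LEF letters CTTTGAT or CTTTGAA, or to their reverse complements ATCAAAG or TTCAAAG.
Axin2: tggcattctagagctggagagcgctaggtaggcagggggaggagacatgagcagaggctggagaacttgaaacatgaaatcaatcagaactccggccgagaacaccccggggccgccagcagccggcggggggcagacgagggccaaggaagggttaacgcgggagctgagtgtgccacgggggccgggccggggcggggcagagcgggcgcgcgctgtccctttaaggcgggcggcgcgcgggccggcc
Sfrp2: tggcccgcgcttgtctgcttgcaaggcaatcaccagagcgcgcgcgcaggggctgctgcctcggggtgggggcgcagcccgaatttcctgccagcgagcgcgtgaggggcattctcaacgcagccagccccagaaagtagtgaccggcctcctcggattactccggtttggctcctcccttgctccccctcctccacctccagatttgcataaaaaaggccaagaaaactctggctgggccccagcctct
Wnt11: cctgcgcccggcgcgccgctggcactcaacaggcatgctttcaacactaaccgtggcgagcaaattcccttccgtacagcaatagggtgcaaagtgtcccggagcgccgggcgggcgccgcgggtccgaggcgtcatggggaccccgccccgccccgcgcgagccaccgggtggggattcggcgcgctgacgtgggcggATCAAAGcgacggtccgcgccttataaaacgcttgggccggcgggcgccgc

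The promoter table held 33 starts for 30 of the 47 members, and 3 of these starts (9.1%) had a match on either strand, against 2457 of 32851 starts of all genes (7.5%). The matches lay before Wnt11, Dkk1 and 1 of the 3 starts of Wnt5b. The Axin2 and Sfrp2 windows had no match, and neither had the Wnt2 window or the other Wnt11 start, which are not printed. That says only that these letters are absent from those 250 bases. GC content was 69.2% before Axin2, 63.6% before Sfrp2 and 70.8% before this Wnt11 start.

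The 6 libraries summed to between 36577451 and 42595799 expected counts. Epithelial content was described with 10 luminal epithelial markers, which were all tested. These markers summed to between 3101 and 3435 TPM (a transcript level scaled for gene length and library size) with agonist. With vehicle the sum was between 3541 and 3588 TPM. Of the 10, Elf5 was at 212 to 399 TPM, though the luminal factor Foxa1 was at 0.16 to 0.44 TPM. Across all 17396 genes that passed the low-count filter, edgeR's quasi-likelihood test called 0 at a Benjamini-Hochberg adjusted p under 0.05, with 538 at an unadjusted p under 0.05. Among the other cell types, the marker sums ran from 12.9 to 28.6 TPM for 7 endothelial genes and from 299 to 476 TPM for 7 skeletal muscle genes. For 6 neural and glial genes they ran from 144 to 252 TPM with agonist and from 209 to 501 TPM with vehicle. Most of that was Sox10 (112 to 230.1 and 195 to 463 TPM), a gene that mammary epithelium also uses. The Sox10 log2 fold change was -0.97 ± 0.31 (edgeR unadjusted p = 0.0137, adjusted p = 0.99).

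Wnt5b and Wnt5a together supplied most of the ligand message, between 53.8% and 79.3% of summed Wnt TPM in each library. Of the 19 ligand genes 6 had a mean above 1 TPM, namely Wnt5b, Wnt5a, Wnt7b, Wnt11, Wnt9a and Wnt2. Summed ligand levels were 30.2 ± 14.6 TPM with agonist and 29.2 ± 5.62 TPM with vehicle (SD, n = 3 each). The individual agonist sums were 22.9, 20.8 and 47.0 TPM and the vehicle sums 31.4, 33.3 and 22.7 TPM, so the groups overlapped and agonist replicate 3 was the highest.

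At the other end, 7 ligand genes had too few reads to be tested. Wnt3a had 1 count in all 6 libraries together, Wnt8b 2, Wnt3 3, Wnt8a 6, Wnt10a 20, Wnt7a 22 and Wnt1 28. Of the 28 Wnt1 counts 21 were in vehicle replicate 2, 5 in agonist replicate 3 and 2 in agonist replicate 2, and the other libraries had none. A count of 0 allows up to 3 counts, between 0.0704 and 0.082 CPM (counts scaled to the library total), and covers counting error only. Several of these genes lie beside a ligand gene that was detected. Wnt1 and Wnt10b point away from each other on chromosome 15 with 11706 bases between them, Wnt10a lies 6193 bases from Wnt6 on chromosome 1, and on chromosome 11 Wnt3a lies 16175 bases from Wnt9a and Wnt3 24328 bases from Wnt9b. Wnt10b, a ligand of the beta-catenin branch, was at 0.14 to 0.74 TPM and, like Wnt1, highest in vehicle replicate 2.

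Receptor message was more even. Fzd7 and Fzd6 made up between 48.7% and 61.9% of summed Frizzled TPM, and the sums were 78.4 ± 4.09 TPM with agonist and 78.1 ± 20.2 TPM with vehicle. Fzd7, a receptor used by mammary stem and progenitor cells, was at 27.6, 20.6 and 28.5 TPM in agonist replicates 1 to 3 and at 31.2, 22.9 and 18.6 TPM in vehicle replicates 1 to 3. Fzd6 was at 17.2, 21.9 and 19.7 TPM with agonist and at 17.9, 12 and 20.1 TPM with vehicle. Neither receptor separated the groups. Fzd1 (6.25 to 11 TPM), Fzd2 (4.9 to 7.96), Fzd5 (3.31 to 7.35), Fzd3 (1.53 to 3.6), Fzd4 (1.08 to 2.33) and Fzd8 (1.3 to 1.63) formed a middle tier, and Fzd10 was near the limit of detection at 0.06 to 0.32 TPM. Lrp6 ranged from 12.1 to 17.7 TPM, and Lrp5 had the highest mean of the 47 genes.

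**Figure D1:**
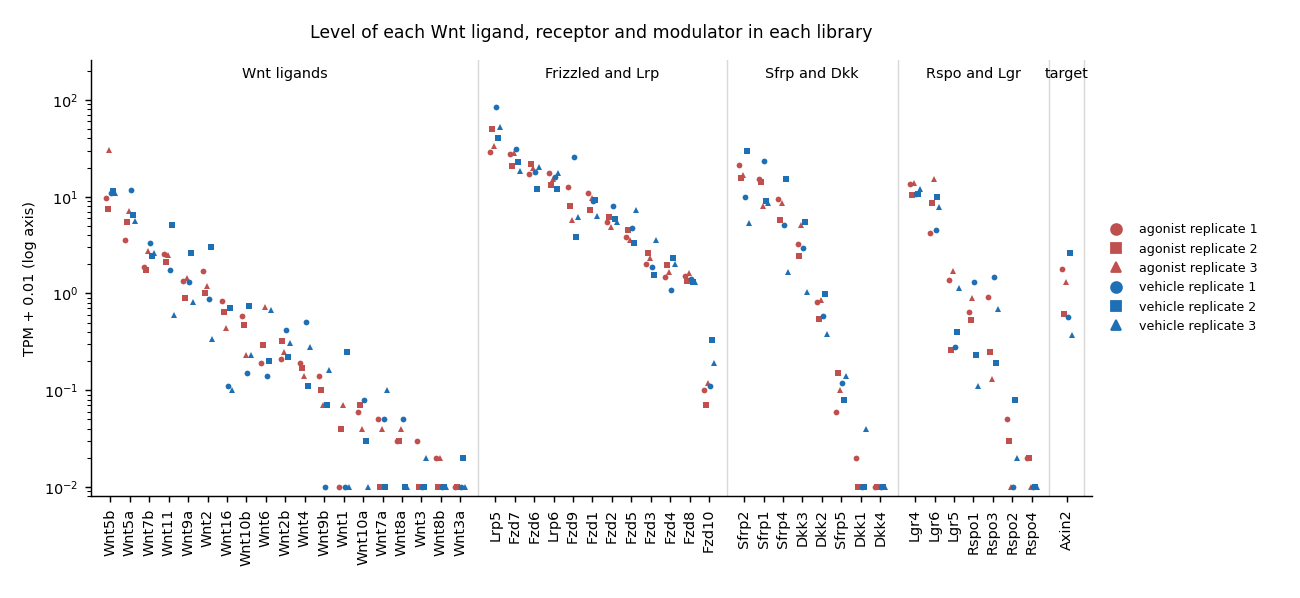
TPM of each of the 47 genes in each library, on a log axis after adding 0.01 so that zeros can be drawn, with genes ordered by mean level within their role. Red symbols are agonist and blue symbols vehicle libraries, and the Lrp5, Frizzled, Sfrp and Lgr4 points lie mostly above 1 TPM while many ligands lie far below it.

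Among the antagonists the Sfrp genes dominated, with sums of 33.5 to 45.7 TPM with agonist and 15.7 to 53.5 TPM with vehicle. The Dkk sums were 2.95 to 5.93 and 1.43 to 6.4 TPM, most of it Dkk3 (1.03 to 5.42 TPM), a divergent member of its family, with Dkk2 at 0.37 to 0.98 TPM. Dkk1, the classical Lrp5 and Lrp6 inhibitor, had 3 counts in all libraries together and Dkk4 had 0. Sfrp5 was at 0.05 to 0.14 TPM and was not tested. The R-spondins, which potentiate Wnt signals, were scarce, with Rspo1 at 0.1 to 1.29 TPM, Rspo3 at 0.12 to 1.48 TPM, 15 counts of Rspo2 in all and 2 of Rspo4. Of their receptors Lgr4 and Lgr6 had higher levels. Lgr4 was at 13.5, 10.4 and 13.8 TPM with agonist and at 10.6, 10.7 and 12.1 TPM with vehicle, the evenest of the 3 Lgr genes.

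The comparison of agonist with vehicle asks which genes differ between the DMHCA and the vehicle libraries. Whether LXR was activated in them was not tested here. Of the 47 genes 35 passed the filter and were tested, and 0 of them were called by edgeR (adjusted p from 0.99 to 0.998), by DESeq2 or by limma on log2(TPM + 1), where edgeR called 0.0% of all genes and DESeq2 0.0391%. At an unadjusted p under 0.05 there was 1 member by edgeR, Lrp5, lower with agonist (2.86%, against 3.09% of all genes, or 2.37% counting lower ones alone). DESeq2 also gave 1 (2.17%, against 2.66%), and limma gave 0 (against 2.26%). The groups overlapped for all 35, while they did not overlap for 7.24% of all tested genes. That was read in CPM after edgeR's TMM scaling, and in TPM the groups overlapped for all 35 as well. Log2 fold changes were positive for 16 and negative for 19 (54.3%, against 50.7% of all genes), with a median of -0.04 beside 0.00 over all tested genes. By role, 5 of 12 ligands, 4 of 12 receptors, 3 of 5 antagonists and 4 of 5 tested R-spondin and Lgr genes were positive.

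**Figure D2:**
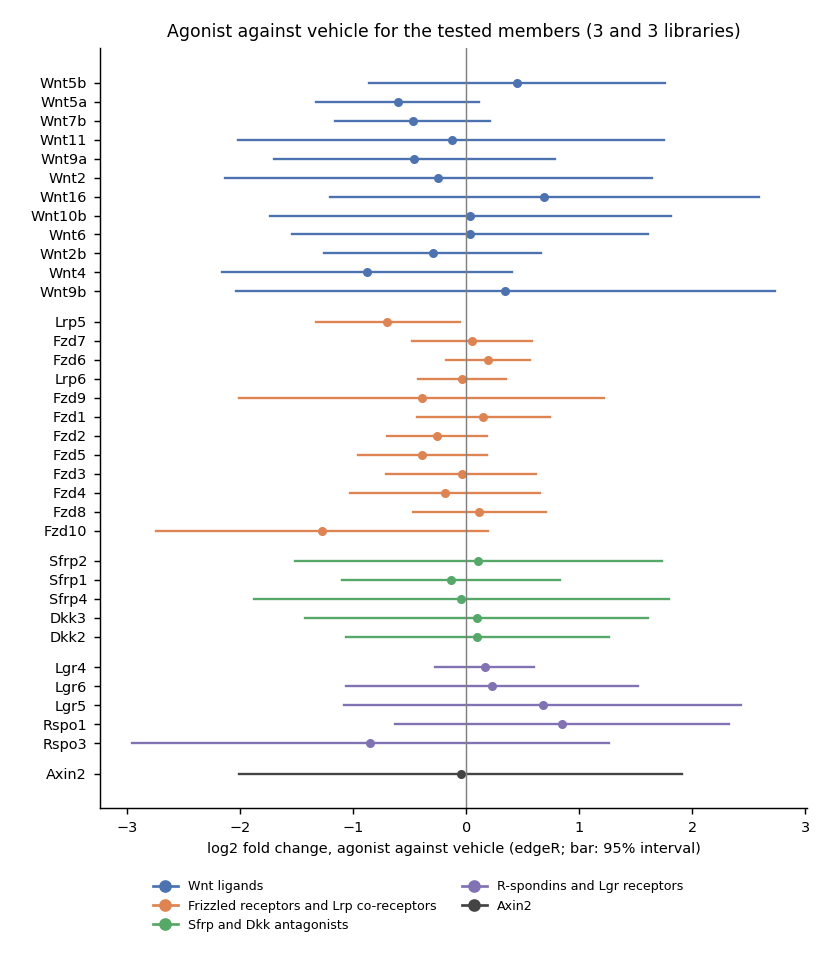
Log2 fold change of agonist against vehicle from edgeR for the 35 tested members, with bars for the 95% interval and colours for the role. The Lrp5 interval (-1.33 to -0.06) lies below 0 and the other 34 cross it, most of them widely.

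Lrp5, the co-receptor with the highest level, was the member with the smallest p. The gene lies on chromosome 19 (3584828 to 3686564, minus strand). It was at 29.3, 50.3 and 33.3 TPM with agonist and at 84.9, 40.5 and 52.5 TPM with vehicle. Agonist replicate 2 lay between the vehicle libraries, so the groups overlapped, and vehicle replicate 1 stood above the rest. The log2 fold change was -0.70 ± 0.27 (SE; 95% interval -1.33 to -0.06; edgeR unadjusted p = 0.0359, adjusted p = 0.99). Without vehicle replicate 1 it was -0.43, and without agonist replicate 2 it was -0.96.

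Wnt5a, on chromosome 14 (28504750 to 28527448, plus strand), had 3.59, 5.52 and 7.1 TPM with agonist and 11.8, 6.47 and 5.61 TPM with vehicle. Its highest value was again in vehicle replicate 1, and the other vehicle values fell among the agonist ones. The log2 fold change was -0.61 ± 0.31 (interval -1.33 to 0.11, edgeR adjusted p = 0.99), and -0.36 without vehicle replicate 1. It was -0.95 without agonist replicate 3 and -0.81 without vehicle replicate 3. Wnt7b, a ligand that epithelium and tumour macrophages are known to make, was at 1.85, 1.72 and 2.71 TPM with agonist and 3.34, 2.45 and 2.63 TPM with vehicle (log2 fold change -0.47 ± 0.30). Fzd10 was at 9, 7 and 13 counts with agonist and 11, 39 and 20 in the vehicle libraries. Its log2 fold change of -1.28 ± 0.64 rests on 99 counts in all. It was -0.62 without vehicle replicate 2 and -1.65 without vehicle replicate 1.

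Vehicle replicate 1 was the highest library for 10 of the 35 tested members (28.6%, against 21.8% of all tested genes). Besides Lrp5 and Wnt5a they included Sfrp1 and Fzd9, the latter chosen after its values were seen. Fzd9, on chromosome 5 (135248938 to 135251230, minus strand), was at 12.5, 7.96 and 5.73 TPM with agonist and at 25.8, 3.84 and 6.15 TPM with vehicle, so it made up 25.5% of summed Frizzled TPM in vehicle replicate 1 and 6.13% in vehicle replicate 2. Its log2 fold change was -0.39 ± 0.67, and 0.72 without vehicle replicate 1. Sfrp1, on chromosome 8 (23411502 to 23449632, plus strand), was at 15.1, 14.3 and 7.98 TPM with agonist and 23.4, 8.92 and 8.56 TPM with vehicle. Its log2 fold change was -0.14 ± 0.40, and 0.38 without that library. Rspo3, on chromosome 10 (29452416 to 29535867, minus strand), had 0.9, 0.24 and 0.12 TPM with agonist and 1.48, 0.18 and 0.68 TPM with vehicle. In both groups replicate 1 of Rspo3 was the highest, and the log2 fold change of -0.85 ± 0.90 was -0.08 without vehicle replicate 1. Leaving out agonist replicate 1 instead gave -2.14.

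For a set of ligands and antagonists the vehicle libraries spanned a wider range than the agonist ones. Vehicle replicate 2 was the highest library for 12 of 35 members (34.3%, against 16.9% of all tested genes) and vehicle replicate 3 the lowest for 12 (34.3%, against 20.7%). In 11 of 35 (31.4%, against 12.1% of all tested genes) vehicle replicate 2 was at least 2-fold above vehicle replicate 3. These were Wnt2, Wnt9a, Wnt10b, Wnt11, Wnt16, Sfrp2, Sfrp4, Dkk2, Dkk3, Rspo1 and Axin2. The shares were not matched for expression level, and low levels give wider ranges.

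Sfrp2, on chromosome 3 (83766321 to 83774316, plus strand), was at 21.1, 15.6 and 16.9 TPM with agonist and at 9.94, 29.4 and 5.35 TPM with vehicle. Sfrp4, on chromosome 13 (19623104 to 19632994, plus strand), was at 9.46, 5.7 and 8.52 TPM with agonist and at 5.09, 15.1 and 1.64 TPM with vehicle. For both antagonists the 3 agonist libraries lay close together, between the vehicle extremes. Their log2 fold changes were 0.10 ± 0.67 and -0.05 ± 0.76.

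Wnt11, on chromosome 7 (98835112 to 98855195, plus strand), was at 2.57, 2.1 and 2.47 TPM with agonist and at 1.75, 5.08 and 0.59 TPM with vehicle. Wnt2, a ligand of mammary stroma on chromosome 6 (17988940 to 18030585, minus strand), was at 1.7, 0.99 and 1.19 TPM with agonist and at 0.86, 2.98 and 0.33 TPM with vehicle. Both ligands thus had the same extremes as the Sfrp genes, and their log2 fold changes were -0.13 ± 0.81 and -0.25 ± 0.81. Wnt2 was chosen after its values were seen.

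Axin2, the feedback inhibitor widely read as a gauge of beta-catenin signalling, lies on chromosome 11 (108920349 to 108950783, plus strand). It was at 1.79, 0.61 and 1.3 TPM with agonist and at 0.56, 2.59 and 0.36 TPM with vehicle. The log2 fold change was -0.05 ± 0.83 (interval -2.01 to 1.91), wide enough to hold a change of either sign.

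These 5 genes, Wnt2, Wnt11, Sfrp2, Sfrp4 and Axin2, ranked the libraries identically, and in the order of the summed level of 11 fibroblast and matrix markers. That sum was 1768 TPM in vehicle replicate 2, 1487 in agonist replicate 1, 1272 in agonist replicate 3, 1047 in agonist replicate 2, 725 in vehicle replicate 1 and 184 in vehicle replicate 3. All 11 markers were tested and none was at 0 in every library. The order was shared by 5 of 35 members (14.3%) and by 128 of all 17396 tested genes (0.736%), and by 0 of 50 tested genes of the rest of the pathway. This measure was chosen after the values were seen. The sum of 7 macrophage and myeloid markers (298 to 356 TPM with agonist, 117 to 439.8 with vehicle) and that of 6 adipocyte markers (52.7 to 345 and 20.5 to 566 TPM) were also highest in vehicle replicate 2 and lowest in vehicle replicate 3. In bulk tumour RNA, fewer cells of a type and less RNA per cell cannot be told apart, and the part of these cell types in the Wnt gene levels was not tested.

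**Figure D3:**
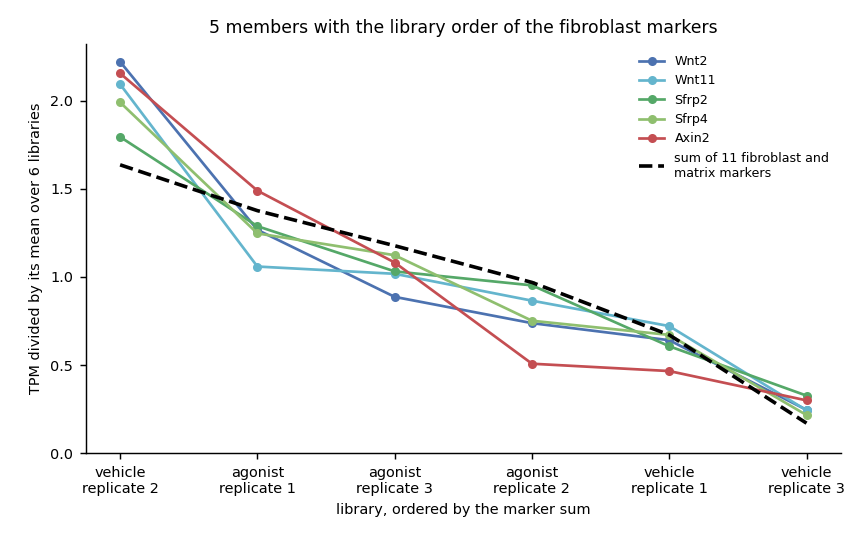
Level of Wnt2, Wnt11, Sfrp2, Sfrp4 and Axin2 in each library, as TPM divided by the gene's mean over the 6 libraries, with libraries ordered by the summed TPM of 11 fibroblast and matrix markers (dashed). All 5 lines fall from vehicle replicate 2 to vehicle replicate 3, and the agonist libraries lie between vehicle replicates 2 and 1.

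Dkk3, Wnt9a and Wnt16, chosen after their values were seen, moved less strictly with the same libraries. Dkk3 was at 3.25, 2.41 and 5.09 TPM with agonist and at 2.91, 5.42 and 1.03 TPM with vehicle, and Wnt9a was at 1.35, 0.89 and 1.43 TPM with agonist and at 1.3, 2.6 and 0.8 TPM with vehicle. Wnt16 was at 0.83, 0.64 and 0.43 TPM with agonist and at 0.1, 0.7 and 0.09 TPM with vehicle, so that vehicle replicate 2 resembled the agonist libraries. Without vehicle replicate 2 the comparison gave 7 of 35 members at an unadjusted p under 0.05 (20.0%) where 13.6% of all genes had one. They were Sfrp2 (log2 fold change 1.3), Wnt16 (2.32), Axin2 (1.59) and Sfrp4 (1.24) on the positive side and Lrp5 (-0.83), Wnt4 (-1.25) and Fzd5 (-0.56) on the negative side, with a smallest edgeR adjusted p of 0.271. Without vehicle replicate 3 the signs of Sfrp2 (-0.30) and Sfrp4 (-0.51) were both negative, with 2 of 35 members, Wnt5a and Lrp5, at an unadjusted p under 0.05 where 3.23% of all genes had one.

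A separate library, agonist replicate 3, held the highest Wnt5b. The gene, on chromosome 6 (119432531 to 119544347, minus strand), was at 9.6, 7.48 and 30.2 TPM with agonist and at 11, 11.4 and 11 TPM with vehicle. The vehicle libraries were nearly equal, and the other 2 agonist libraries lay below them. The log2 fold change was 0.45 ± 0.54 (edgeR adjusted p = 0.99), and -0.46 without agonist replicate 3. Fbxl14, which overlaps Wnt5b on the opposite strand and whose reads cannot be told apart where the genes overlap if strand was not used, was at 14.8 TPM in agonist replicate 3 within a range of 12.5 to 21.9 TPM.

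Lgr6, an R-spondin receptor of basal mammary and skin progenitors on chromosome 1 (134983301 to 135105276, minus strand), was highest in the same library. It was at 4.2, 8.56 and 15.1 TPM with agonist and at 4.51, 9.94 and 7.79 TPM with vehicle, and its log2 fold change of 0.23 ± 0.54 was -0.34 without agonist replicate 3. The 11 basal and myoepithelial markers, all tested and none at 0 in every library, summed to 151, 137 and 352 TPM with agonist and to 156, 141 and 48.2 TPM with vehicle. Smooth muscle actin Acta2 was at 97.7 TPM in agonist replicate 3, beyond the other 5 libraries (5.08 to 30.9 TPM). The part of basal cells in the Wnt5b and Lgr6 levels was not tested.

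**Figure D4:**
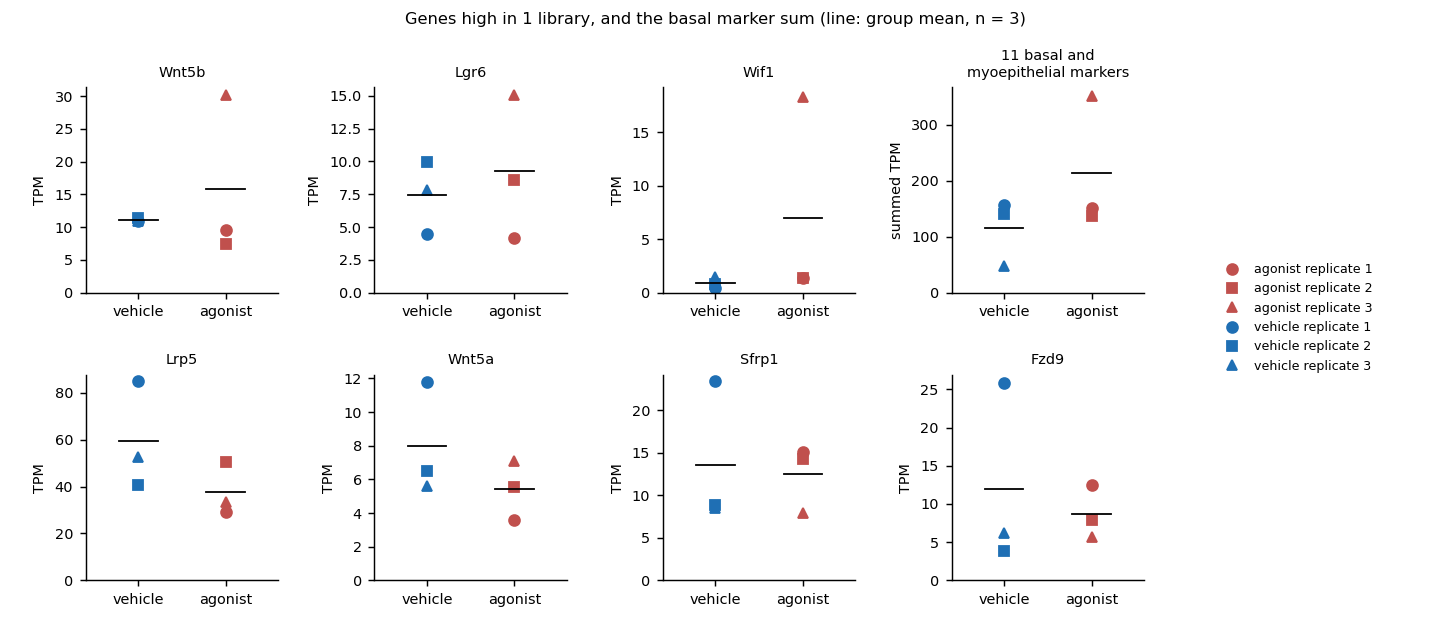
TPM per library of Wnt5b, Lgr6 and Wif1 with the sum of 11 basal and myoepithelial markers (top), and of Lrp5, Wnt5a, Sfrp1 and Fzd9 (bottom), by group, with lines at the group means. Agonist replicate 3 (red triangle) is highest in the top row, at 30.2 TPM for Wnt5b, and vehicle replicate 1 (blue circle) in the bottom row, at 84.9 TPM for Lrp5.

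Lgr5, a stem cell marker and R-spondin receptor on chromosome 10 (115450311 to 115587780, minus strand), varied within both groups. It was at 1.36, 0.25 and 1.69 TPM with agonist and at 0.27, 0.39 and 1.14 TPM with vehicle. High and low libraries occurred under both treatments (log2 fold change 0.68 ± 0.75, and 0.31 without vehicle replicate 1 or 1.42 without vehicle replicate 3). Wnt9b had 19, 14 and 10 counts with agonist and 0, 11 and 23 with vehicle, too few to read a difference (0.34 ± 1.03). Wnt4 was at 0.13 to 0.18 TPM with agonist and 0.1 to 0.5 TPM with vehicle. Wnt6 (0.13 to 0.71 TPM) and Wnt2b (0.2 to 0.41 TPM) overlapped between groups as well.

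The rest of the pathway was read from 57 further genes, of which 50 were tested and 0 called by edgeR (adjusted p from 0.99) or DESeq2. The 57 genes were chosen with earlier results of these data known. The shares that follow are therefore not independent support for an excess, and they were not matched for expression level. At an unadjusted p under 0.05 there were 7 by edgeR (14.0%, against 3.09% of all genes) and 6 of 55 by DESeq2 (10.9%, against 2.66%). The groups did not overlap for 14 of 50 (28.0%, against 7.24% of all tested genes), 5 higher (10%, against 3.02%) and 9 lower with agonist (18%, against 4.22%). This split depended on the scale, which was examined after the values were seen. Read in TPM, 4 of 50 were higher (8%, against 6.32% of all genes) and 0 were lower (against 1.45%). The 9 that were lower in TMM-scaled CPM alone included the scaffold genes Axin1 and Apc2, the kinase gene Gsk3a, Dvl1 and Cby1. The others were the beta-catenin cofactors Bcl9 and Bcl9l, and, at the membrane, Kremen1 and Celsr2.

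Bcl9l had the smallest p of these. It was at 9.09, 15.8 and 14.9 TPM with agonist and at 30.4, 14.4 and 22.8 TPM with vehicle. Agonist replicates 2 and 3 thus exceeded vehicle replicate 2 in TPM. Its log2 fold change was -0.82 ± 0.23 (edgeR unadjusted p = 0.00855, adjusted p = 0.99). Bcl9 (-0.56 ± 0.20, with -0.33 without vehicle replicate 1 and -0.71 without vehicle replicate 2) and the planar polarity cadherin Celsr2 (-0.69 ± 0.20) followed.

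The higher ones were Wif1, Frzb, Nkd2, Sostdc1 and the tankyrase gene Tnks2. Wif1, which binds Wnt ligands, was at 1.42, 1.37 and 18.3 TPM with agonist and at 0.43, 0.78 and 1.51 TPM with vehicle. In TPM it overlapped the vehicle range, and its log2 fold change of 3.07 ± 1.19 was 0.67 without agonist replicate 3, the library with the high Wnt5b and basal markers. Without agonist replicate 1 it was 3.56. DESeq2 gave no p-value for Wif1. Frzb, an Sfrp-like Wnt binder, had 0.12, 0.21 and 0.32 TPM with agonist and 0.06, 0.05 and 0.07 TPM with vehicle. Its log2 fold change was 1.43 ± 0.50, on 78 counts in all. Nkd2, an inhibitor that binds Dishevelled, was at 2.67, 3.77 and 4.33 TPM with agonist and at 1.7, 2.14 and 1.86 TPM with vehicle. All 3 agonist libraries were above all vehicle libraries for Frzb and Nkd2, and the log2 fold change of Nkd2 was 0.82 ± 0.29 (edgeR unadjusted p = 0.0229, adjusted p = 0.99).

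For the central genes chosen by name the groups overlapped. Ctnnb1, which encodes beta-catenin, was at 681 ± 74.7 TPM with agonist and 627 ± 123 TPM with vehicle (log2 fold change 0.06 ± 0.16, n = 3). Wls was at 49.6 ± 4.15 and 41.0 ± 7.95 TPM and Porcn at 4.22 ± 0.21 and 4.91 ± 1.67 TPM, with log2 fold changes of 0.23 ± 0.21 and -0.22 ± 0.31. The ubiquitin ligase gene Rnf43, which removes Frizzled receptors, was at 23.2 ± 3.3 and 37.8 ± 12.8 TPM. Its log2 fold change was -0.50 ± 0.21 (edgeR unadjusted p = 0.0501, adjusted p = 0.99), and ran from -0.69 to -0.33 with libraries left out. Its relative Znrf3 was at 2.62 ± 0.522 and 2.6 ± 0.69 TPM (-0.05 ± 0.23). The feedback inhibitor gene Nkd1 was at 1.1 ± 0.393 and 0.97 ± 0.345 TPM (0.12 ± 0.49), and Notum had 23 counts in all and was not tested. The TCF/LEF genes Tcf7 and Lef1 had log2 fold changes of 0.17 ± 0.46 and -1.13 ± 0.96, the latter on 128 counts in all.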

How the data were processed

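RNA from mammary tumours was sequenced as 6 libraries, 3 per group, with groups and replicate numbers taken from the sample titles. Per the submitters' processing notes, the authors' tools included RSEM 1.3.1 and STAR 2.7.9a for build GRCm38, beside cutadapt 3.5, FastQC 0.11.9, R 4.1 and DESeq2 1.36.0. Which annotation release and strand setting they chose is not given in the sources used here. Per the file headers, the authors deposited an expected count (estimated reads) and a TPM value for each gene. Between 10.1% and 10.5% of expected counts were not whole, and all were rounded before testing.

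Agonist and vehicle were compared over the whole table with edgeR 4.0.16 (R 4.3.3), using filterByExpr (minimum count 10, total 15), TMM factors, robust dispersions and the quasi-likelihood test of group, called at a Benjamini-Hochberg adjusted p under 0.05. Levels are the authors' TPM, and fold changes are from counts, with SE as the log2 fold change over the square root of F. Whether groups overlap was read in TMM-scaled CPM unless TPM is named. The same pipeline was run on simulated counts with the same dispersion for every gene. That checks the code, and not its power at the spread of these members. Gene positions are those of GENCODE M21, and promoters those of RefSeq. Alternatives were other normalizations, filters, DESeq2 1.42.0, limma 3.58.1 on log2(TPM + 1) and log2(TPM + 0.1), the replicate number as a block, and each library left out. Reading overlap in TPM was added after the data were seen.

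Every member is accounted for by role. Values in every library are given for up to 3 members per role with the highest mean TPM, members with an unadjusted p under 0.1, and the 3 with the widest range in log2 CPM (prior count 2), plus others said to be chosen on their values (Fzd9, Wnt2, Wnt9a, Wnt16 and Dkk3). Of the further pathway genes the 6 with the smallest p and 9 chosen by name are given. The members and lists were chosen with earlier results of these data known.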

Additional observations from a re-analysis of the deposited data

How the results depend on the processing

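Members called by adjusted p numbered 0 in each of the 15 alternatives, as did the further pathway genes. Over all genes the count was 0 except with DESeq2, which called 8, none of them a member. The members' median log2 fold change moved from -0.04 to 0.17 with limma on log2(TPM + 0.1), and ran from -0.28 to 0.2 with libraries left out. Genes at an unadjusted edgeR p under 0.05 numbered 847 of 29166 without the filter (2.9%, against 3.09% with it). With libraries left out they numbered from 315 of 17880 (1.76%) to 2442 of 17963 (13.6%). The members among them were 1 of 46 without the filter and 1 to 7 of 35 with libraries left out. Pathway genes lower with agonist without overlap went from 9 to 0 when overlap was read in TPM, a choice made after seeing the data.

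Of 37 genes followed, 17 kept their sign in every alternative that fitted them. Of these Fzd10, Frzb, Wif1 and Wnt16 were fitted in 14 of the 15. Some of the 17 were followed for their small p in these same data, which makes a kept sign likelier. On log2(TPM + 1) with limma the sign reversed for Axin2 (0.15), Sfrp4 (0.45), Wnt11 (0.18), Wnt2 (0.09) and Znrf3 (0.02), and on log2(TPM + 0.1) the values were 0.4, 0.6, 0.4, 0.33 and 0.03. With the replicate number as a block, reversals were Axin2 (0.69), Sfrp4 (0.57), Wnt11 (0.55) and Wnt2 (0.43). The block gave 0 of 35 members and 488 of 17396 genes (2.81%) at an unadjusted edgeR p under 0.05, and a median of 0.15. Deviations of same-numbered libraries from their group means correlated at 0.17, 0.04 and 0.06. Agonist replicate 2 correlated slightly better with vehicle replicate 3 (0.05), whereas agonist replicates 1 and 3 correlated best with their own number. The labels name no pairing, and these small values cannot decide whether there was one.

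With libraries left out, log2 fold changes ran from -0.48 to 1.59 for Axin2, -0.13 to 0.2 for Fzd7, -0.34 to 0.63 for Lgr6, -0.39 to 0.38 for Sfrp1, -0.3 to 1.3 for Sfrp2, -0.51 to 1.24 for Sfrp4, -0.61 to 1.29 for Wnt11, -0.46 to 0.81 for Wnt5b and -0.25 to 1.35 for Wnt9b. They ran from -0.33 to 0.94 for Dkk3, -0.79 to 0.29 for Wnt9a, -0.79 to 0.72 for Fzd9, -0.72 to 1.21 for Wnt2 and -0.39 to 1.31 for Wnt10b. Among further genes they ran from -0.02 to 0.16 for Ctnnb1, -1.67 to 0.09 for Lef1, -0.16 to 0.43 for Tcf7, -0.38 to 0.09 for Porcn, -0.19 to 0.11 for Znrf3 and -0.13 to 0.57 for Nkd1. Among genes that kept their sign, they ran from -0.72 to -0.33 for Wnt7b, 0.27 to 2.32 for Wnt16, 0.08 to 0.31 for Fzd6, 0.04 to 0.3 for Lgr4 and 0.04 to 0.34 for Wls. The cause of these changes was not tested. Members under about 100 counts in all, such as Fzd10 and Wnt9b, are limited by depth.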
